A study of Mus musculus with 10 samples.

Results

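The collagen genes were taken as every protein-coding row of the mouse gene table whose symbol reads Col, a type number, the letter a and a chain number. The rule found 44 genes among 45777, and their levels are described here in 10 RNA-seq libraries of MC38 tumors. MC38 is a mouse colon carcinoma line, and its tumors had been grown subcutaneously, in the right flank, in C57BL/6 females labelled WT. The groups were YH29407+aPD-1 (called the combination below, replicates 2, 3 and 4), YH29407 alone (replicates 1, 3 and 4), aPD-1 alone (replicates 3 and 4) and control (replicates 3 and 5). YH29407 is an oral inhibitor of IDO1, an enzyme that breaks down tryptophan, and aPD-1 is an antibody against the T cell checkpoint receptor PD-1. The methods give the age at purchase and a harvest day for MC38 tumors that were dissociated for flow cytometry, and do not say whether the sequenced tumors were taken on that day. Each library is taken as 1 tumor; since nothing in the labels says that replicates were separate animals, p-values measure only the spread between these libraries. All tumors came from 1 transplanted line, so that stroma of the host and the tumor cells were sequenced together.

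Collagens are proteins in which 3 chains wind around each other into a triple helix. Fibrillar collagens (types I, II, III, V, XI, XXIV and XXVII) assemble into the fibrils that give tissue its strength, and type V chains set how thick the fibrils of type I become. Type IV chains form the sheet-like network of basement membranes, type VIII and X chains form hexagonal networks, and type VI chains form beaded microfilaments around cells. FACIT collagens (types IX, XII, XIV, XVI, XIX, XX and XXII) sit on the surface of fibrils and link them to other molecules. Type VII makes the anchoring fibrils under the epidermis, types XIII, XVII, XXIII and XXV cross the cell membrane, and the multiplexins XV and XVIII are basement membrane collagens that carry sugar chains. In solid tumors most fibrillar collagen is known to come from fibroblasts, while endothelial cells and pericytes lay down much of the type IV network. By class the 44 genes held 11 fibrillar, 6 basement membrane network, 3 hexagonal network, 6 beaded filament, 9 FACIT, 1 anchoring fibril, 4 transmembrane and 2 multiplexin genes, and 2 others (Col26a1 and Col28a1).

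The libraries held between 56170804 and 76287659 counts, of which 0.683% to 1.61% fell on collagen genes. Combination replicate 4 stood apart from the other 9 libraries. There, 2.28% of counts came from mitochondrial mRNA and 7.09% from pseudogenes, while the ranges elsewhere were 0.413% to 0.56% and 3.04% to 3.70%. Its Spearman correlations with the rest had a median of 0.908, and those medians were 0.961 to 0.974 for the rest. It held the highest CPM (counts scaled to library size by edgeR) of 27 of the 43 collagens that passed the filter on low counts, and the highest CPM of 31.8% of all 21523 genes that passed. The 1438 olfactory and vomeronasal genes came to 1338 CPM there, against 97.8 to 390 CPM in the other 9. Col4a3, Col4a4, Col6a5, Col6a6, Col8a2, Col19a1 and Col25a1, with medians of at most 0.0441 TPM, also had their highest TPM there. Col10a1, with a median of 0 TPM, was highest in combination replicate 2. Whether reads of the same kind add to these low collagen levels was not tested. Combination replicates 2 and 3 differed from all other libraries in 10 keratinocyte genes, which summed to 621 and 194 TPM there, to 1.12 TPM in combination replicate 4 and to at most 6.35 TPM in the YH29407, aPD-1 and control libraries. The 8 epithelial markers checked against the label of a colon tumor summed to only 1.63 to 8.28 TPM, and 2 to 4 of them were at 0 in each library. Skeletal muscle genes were likewise highest in combination replicate 4, at 193 TPM against 7.79 to 84.4 TPM in the others, and 10 cartilage and bone genes summed to 91.4 TPM there against 32.7 to 73.7 TPM. Sums over the other lists ran between 16.2 and 124 TPM for T cells, 661 and 1358 TPM for macrophages, 43.0 and 119 TPM for pericytes and smooth muscle, 22.1 and 311 TPM for adipocytes and 22.6 and 76.2 TPM for Schwann cells. Of the 8 adipocyte genes, 3 to 5 were at 0 in each library, and of the 10 cartilage and bone genes 2 to 5. Outside combination replicate 4, the adipocyte gene Fabp4 alone ran between 49.6 and 305 TPM. In the same 9 libraries the cartilage and bone gene Sox9 alone ran between 29.8 and 70.9 TPM. These 2 sums thus rest mostly on 1 gene each and do not measure the content of a cell type. The part of these library differences in the results below was not tested, and in bulk tissue fewer cells of a type and less RNA per cell cannot be told apart.

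**Figure D1:**
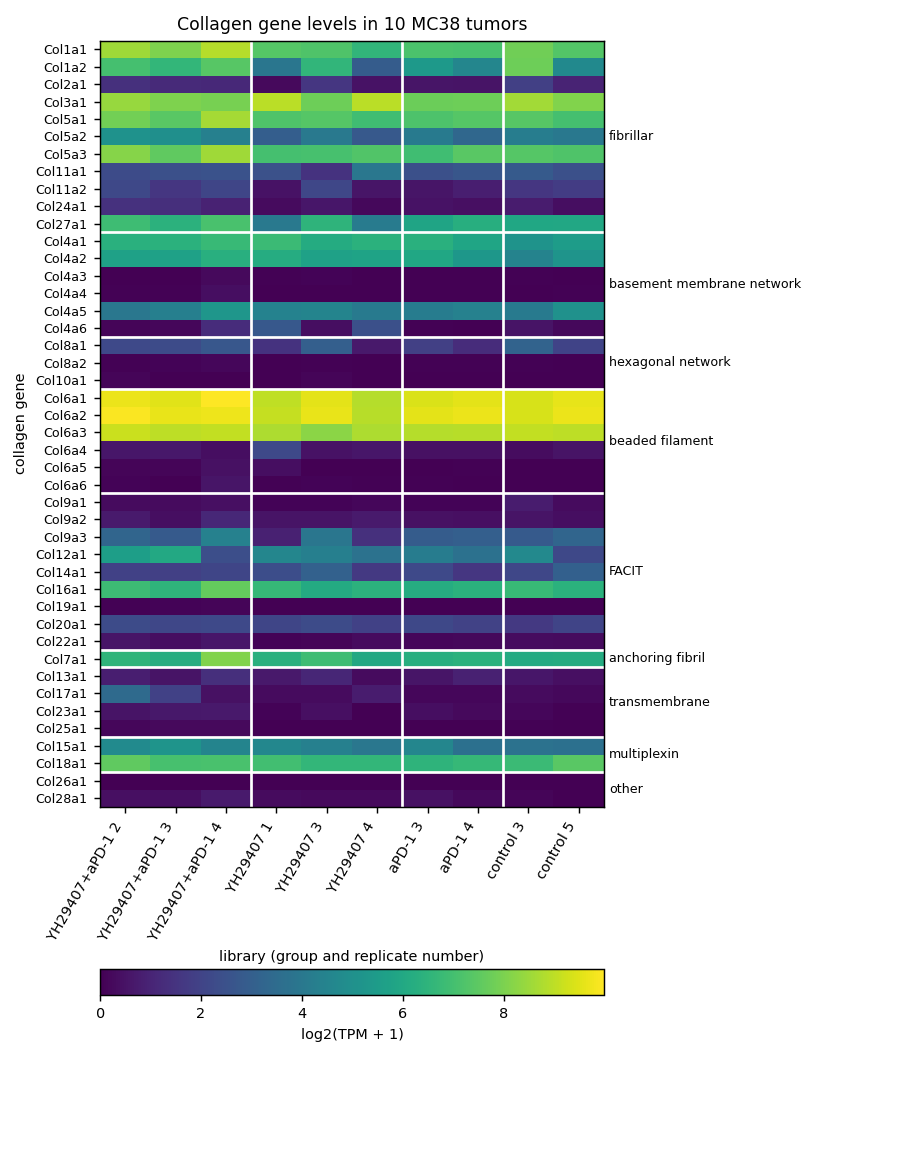
Level of the 44 collagen genes (rows, by class) in the 10 libraries (columns, by group and replicate number), as log2(TPM + 1) of the deposited values, where TPM is the length-scaled share of transcripts. Col6a1 and Col6a2 are the brightest rows, with medians of 743 and 799 TPM, in every column but that of YH29407 replicate 4, where Col3a1 (489 TPM) is above both, and Col26a1 is at 0 throughout.

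Levels across genes are given in TPM, which is scaled by transcript length. A median TPM over 10 was reached by 18 of the 44 genes, and 19 had a median under 1 TPM. The well-expressed genes were 7 of 11 fibrillar, 3 of 6 basement membrane, 3 of 6 beaded filament, 2 of 9 FACIT and both multiplexin genes, and Col7a1, while no hexagonal or transmembrane collagen reached that level. Summed over all 44 genes, collagen mRNA came to 4537, 3725 and 5109 TPM in the combination libraries, 3059, 3237 and 2714 TPM in the YH29407 libraries, 3112 and 3280.5 TPM in the aPD-1 libraries and 3535 and 3387 TPM in the control libraries. All 3 combination tumors were above all 7 others. The 6 beaded filament genes made up 46.8% to 62.6% of that sum, and the fibrillar genes 23.8% to 35.8%.

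**Figure D2:**
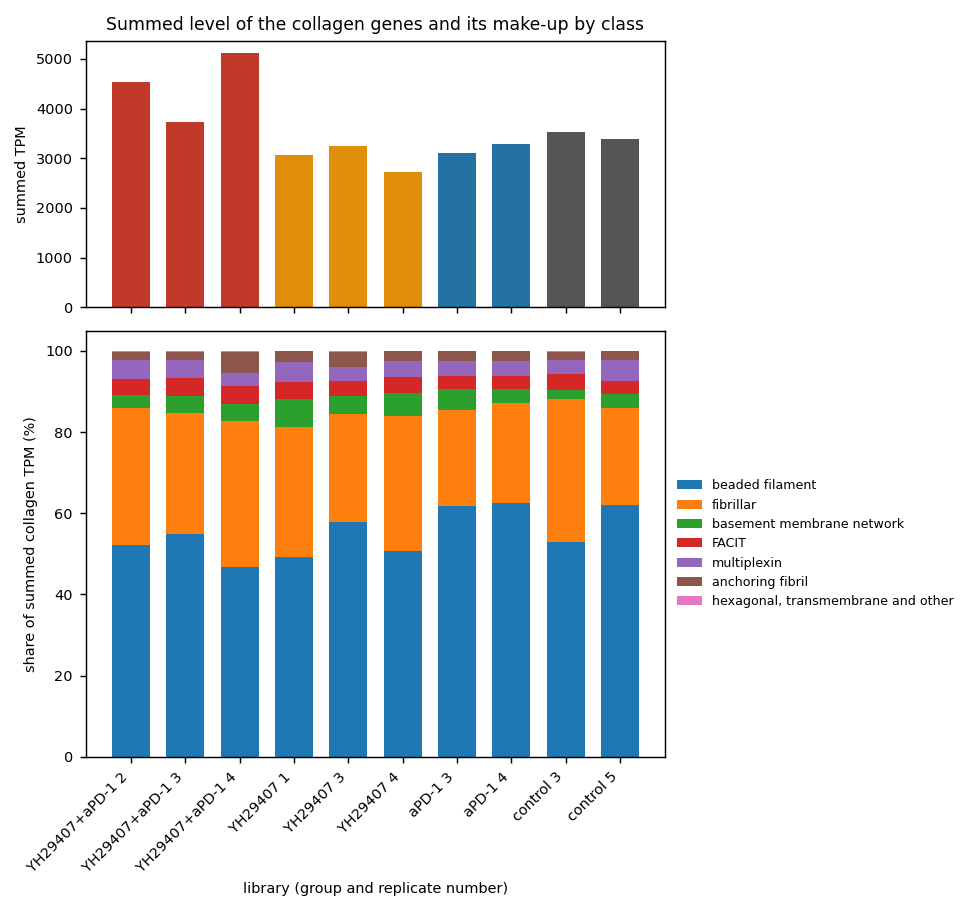
Summed TPM of the 44 collagen genes in each library (upper bars, colored by group) and the share of each class in that sum (lower stacked bars, percent). The sums of the 3 combination libraries, 3725 to 5109 TPM, stand above those of the other 7, which run between 2714 and 3535 TPM, and beaded filament genes are the lowest and tallest block of every stack.

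Type VI collagen genes had the highest summed level of any class in each of the 10 tumors, and the highest library exceeded the lowest by 1.88 to 2.17 times for the 3 abundant ones. Col6a1, Col6a2 and Col6a3 encode its 3 classical chains. Col6a1 had 829, 731 and 1009.9 TPM in the combination libraries, 526, 767 and 465 TPM in the YH29407 libraries, 688 and 755 TPM in the aPD-1 libraries and 656 and 774 TPM in the control libraries. The groups overlap. Col6a2, which is spaced 85161 bases from Col6a1 on chromosome 10, ran between 483 and 961 TPM, and Col6a3 between 306 and 575 TPM. Within a library Col6a1 stayed close to Col6a2, at 0.863 to 1.20 times its TPM. YH29407 replicate 3 had the lowest Col6a3 (306 TPM) beside one of the higher Col6a1 levels (767 TPM), so that its ratio of Col6a3 to Col6a1 was 0.399, against 0.536 to 0.916 in the other libraries. The alternative chains Col6a4, Col6a5 and Col6a6, which lie side by side on chromosome 9, had medians of 0.435, 0.0351 and 0.0336 TPM. Col6a4 was at 3.63 TPM in YH29407 replicate 1 and at 0.266 to 0.568 TPM in the other 9 libraries. Col6a5 and Col6a6 reached at most 0.373 and 0.474 TPM, both in combination replicate 4.

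For a view of what lies in front of these genes, the bases upstream of the start are shown for 5 members that the results turn on, taken from the RefSeq promoter table of build GRCm38.p6, which corresponds to mm10. They are Col6a1 (an abundant gene with a narrow range), Col1a2 and Col3a1 (fibrillar genes, low and high in YH29407 replicates 1 and 4) and the neighbors Col4a6 and Col4a5. Capitals mark 3 motifs searched on both strands: CCAAT (reverse ATTGG), the GC box GGGCGG (reverse CCGCCC) and the TATA box TATAAA (reverse TTTATA). Bases inside a RefSeq transcript of the gene were left out. The windows are chr10:76726045-76726294 on the minus strand for Col6a1, chr6:4505368-4505617 on the plus strand for Col1a2, chr1:45311288-45311537 on the plus strand for Col3a1, chrX:141474096-141474326 on the minus strand for Col4a6 and chrX:141475169-141475369 on the plus strand for Col4a5.
Col6a1: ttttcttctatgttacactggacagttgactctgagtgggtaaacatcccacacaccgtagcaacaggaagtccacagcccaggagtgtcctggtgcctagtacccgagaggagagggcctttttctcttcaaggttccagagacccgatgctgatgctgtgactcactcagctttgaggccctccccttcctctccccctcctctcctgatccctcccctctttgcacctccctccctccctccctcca
Col1a2: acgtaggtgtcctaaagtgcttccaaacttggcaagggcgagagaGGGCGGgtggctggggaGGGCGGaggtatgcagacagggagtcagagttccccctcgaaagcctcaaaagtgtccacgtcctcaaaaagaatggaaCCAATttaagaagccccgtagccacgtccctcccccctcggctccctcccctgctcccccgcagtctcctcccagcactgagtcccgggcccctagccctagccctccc
Col3a1: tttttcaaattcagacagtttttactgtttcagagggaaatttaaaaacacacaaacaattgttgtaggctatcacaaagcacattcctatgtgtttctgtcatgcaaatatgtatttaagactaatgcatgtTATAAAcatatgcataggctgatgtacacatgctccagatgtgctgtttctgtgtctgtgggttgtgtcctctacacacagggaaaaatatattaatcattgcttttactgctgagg
Col4a6: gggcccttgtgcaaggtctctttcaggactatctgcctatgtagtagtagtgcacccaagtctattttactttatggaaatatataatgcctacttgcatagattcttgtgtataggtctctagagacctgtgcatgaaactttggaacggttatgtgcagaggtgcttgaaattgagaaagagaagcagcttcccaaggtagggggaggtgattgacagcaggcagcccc
Col4a5: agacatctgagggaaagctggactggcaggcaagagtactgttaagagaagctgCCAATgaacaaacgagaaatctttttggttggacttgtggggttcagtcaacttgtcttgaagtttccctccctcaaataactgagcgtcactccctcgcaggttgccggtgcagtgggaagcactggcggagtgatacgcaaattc
The Col1a2 window held 2 GC boxes and 1 CCAAT motif at a GC content of 62%, with 11 CpG dinucleotides. The Col3a1 window was AT-rich, with 35.2% GC, 0 CpG and 1 TATA box, in the middle of the window. The Col6a1 window (56% GC, 3 CpG) held none of the 3 motifs, nor did the 231 bases shown for Col4a6, and the stretch shown for Col4a5 held 1 CCAAT. Over the 35 collagen genes with an entry, 21 (60%) held a GC box within the 250 bases, against 32.7% of all 32851 promoter entries, and the figures were 13 (37.1%) against 33.8% for CCAAT and 5 (14.3%) against 12.4% for TATAAA. The collagens were counted by gene, with a match in any entry, and the background by entry. The 2 shares are therefore not of like measure. A match is a description of letters and not of a bound site.

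Among the fibrillar collagens the type I and type III genes did not follow each other. Col1a1 encodes the chain that is present in a pair in each type I molecule, and Col1a2 encodes the chain that is present once. Col1a1 (chr11:94936224-94953042) had 378, 266 and 472 TPM in the combination libraries, 163, 148 and 93.7 TPM in the YH29407 libraries, 141 and 138 TPM in the aPD-1 libraries and 223 and 158 TPM in the control libraries. All 3 combination tumors were above all 7 others. Col1a2 (chr6:4505618-4541543) had 129, 97.1 and 169 TPM in the combination libraries, 14.3, 95.1 and 6.43 TPM in the YH29407 libraries, 41.2 and 22.7 TPM in the aPD-1 libraries and 221 and 25.8 TPM in the control libraries. Its levels spanned 34.4-fold between libraries, against 5.04-fold for Col1a1, and the replicates of YH29407 and of control did not resemble each other. The ratio of Col1a1 to Col1a2 was 2.93, 2.74 and 2.80 in the combination libraries, 11.4, 1.55 and 14.6 in the YH29407 libraries, 3.43 and 6.08 in the aPD-1 libraries and 1.01 and 6.13 in the control libraries. The 3 combination libraries lay close together in this ratio, and the replicates of each other group lay farther apart.

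Col3a1, which encodes the chain of type III collagen, had 349, 265 and 247 TPM in the combination libraries, 497, 219 and 489 TPM in the YH29407 libraries, 213 and 221 TPM in the aPD-1 libraries and 390.4 and 272 TPM in the control libraries. YH29407 replicates 1 and 4, which were the lowest libraries in Col1a2, were the highest in Col3a1. Its neighbor Col5a2, 24624 bases away on chromosome 1, went the other way in those tumors: 32.7, 30.4 and 19.4 TPM in the combination libraries, 6.97, 15.3 and 5.89 TPM in the YH29407 libraries, 16.1 and 9.1 TPM in the aPD-1 libraries and 17.9 and 15.0 TPM in the control libraries. The ratio of Col3a1 to Col5a2 was 71.3 and 83.1 in YH29407 replicates 1 and 4 and between 8.72 and 24.3 in the other 8 libraries.

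YH29407 replicates 1 and 4 were low in further fibrillar genes. Col27a1, a fibrillar collagen best known from cartilage, had 117, 83.6 and 139 TPM in the combination libraries, 15.3, 89.4 and 16.7 TPM in the YH29407 libraries, 56.4 and 74.9 TPM in the aPD-1 libraries and 61.5 and 61.5 TPM in the control libraries. Col11a2 was at 0.399 and 0.494 TPM in those 2 YH29407 tumors and at 3.41 TPM in YH29407 replicate 3, beside 0.495 TPM in aPD-1 replicate 3. Col11a1, the partner chain of type XI, had 4.60, 1.75 and 14.4 TPM in the YH29407 libraries and 3.82 to 6.14 TPM in the other 7, so that replicate 4 alone was high in it. The 3 YH29407 libraries were close together in other genes, such as Col5a3 (130.2, 132 and 155 TPM). These libraries carry the same treatment label as replicate 3, and no batch label separates them.

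**Figure D3:**
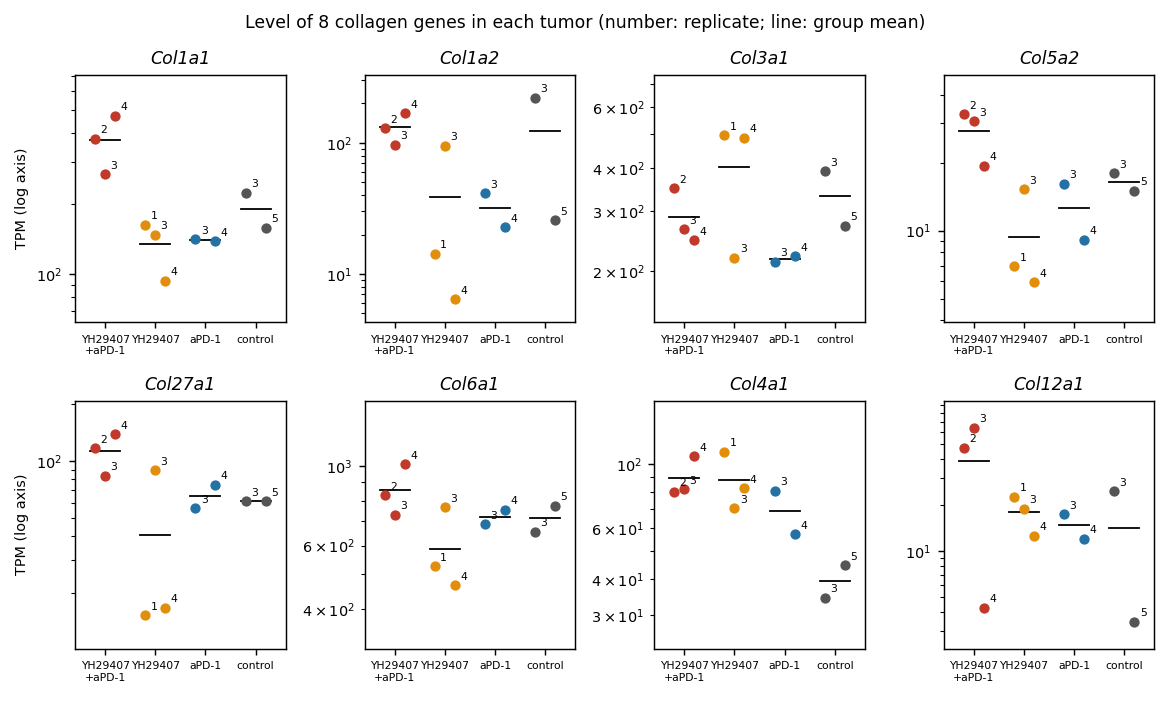
TPM of 8 collagen genes in each library on log axes, with the replicate number beside each point and the group mean as a line. In the YH29407 column, replicates 1 and 4 lie apart from replicate 3 for Col1a2 (14.3 and 6.43 against 95.1 TPM), Col27a1 (15.3 and 16.7 against 89.4 TPM) and, in the opposite direction, Col3a1 (497 and 489 against 219 TPM).

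The remaining type V genes were abundant. Col5a1 had 228, 173 and 400.3 TPM in the combination libraries, 149.7, 161 and 119 TPM in the YH29407 libraries, 144 and 162 TPM in the aPD-1 libraries and 166 and 129 TPM in the control libraries. Col5a3 had 287, 186 and 373 TPM in the combination libraries, 130.2, 132 and 155 TPM in the YH29407 libraries, 121 and 171 TPM in the aPD-1 libraries and 162 and 148 TPM in the control libraries. In both genes the 3 combination tumors lay above the other 7. Col24a1, a minor fibrillar collagen known from bone, followed the same order at a low level: 1.65, 1.57 and 0.920 TPM in the combination libraries, 0.222, 0.535 and 0.161 TPM in the YH29407 libraries, 0.388 and 0.313 TPM in the aPD-1 libraries and 0.711 and 0.296 TPM in the control libraries. The cartilage collagen Col2a1 stayed at or below 2.67 TPM.

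In the basement membrane class, the 2 main genes Col4a1 and Col4a2 were lowest in the control tumors. Col4a1 (chr8:11198423-11312889) had 80.2, 81.7 and 106 TPM in the combination libraries, 110.1, 70.1 and 82.4 TPM in the YH29407 libraries, 80.6 and 57.2 TPM in the aPD-1 libraries and 34.4 and 44.5 TPM in the control libraries. Col4a2, its partner in the common type IV molecule, had 51.8, 50.9 and 76.6 TPM in the combination libraries, 72.2, 51.4 and 54.2 TPM in the YH29407 libraries, 60.2 and 37.6 TPM in the aPD-1 libraries and 21.3 and 35.3 TPM in the control libraries. Both control tumors were below the 8 treated tumors in both genes. The 2 genes lie head to head on chromosome 8 and share 85 bases in the annotation, and the ratio of Col4a1 to Col4a2 was between 1.26 and 1.62 in all 10 libraries. The summed level of 10 endothelial markers was 168, 252 and 80.3 TPM in the combination libraries, 261, 202 and 140.4 TPM in the YH29407 libraries, 209.8 and 119.6 TPM in the aPD-1 libraries and 132 and 103 TPM in the control libraries, with none of the 10 at 0 in any library. Its part in the type IV values was not tested.

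Col4a5 and Col4a6 are another head-to-head pair, on chromosome X with 1274 bases between them, and they did not move together. Col4a5 ran between 14.4 and 36.9 TPM, and its mean was as high in control (24.4 ± 11.2 TPM, SD, n = 2) as in any treated group (18.4 to 23.3 TPM). Col4a6 had 0.105, 0.138 and 1.41 TPM in the combination libraries, 5.72, 0.301 and 4.37 TPM in the YH29407 libraries, 0.0498 and 0 TPM in the aPD-1 libraries and 0.449 and 0.163 TPM in the control libraries. The high values are again those of YH29407 replicates 1 and 4, whose Col4a5 was at 20.2 and 15.7 TPM. Col4a3 and Col4a4, the chains of specialized basement membranes such as that of the kidney glomerulus, were at 0 in 5 and 4 of the libraries and reached 0.203 and 0.298 TPM in combination replicate 4.

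**Figure D4:**
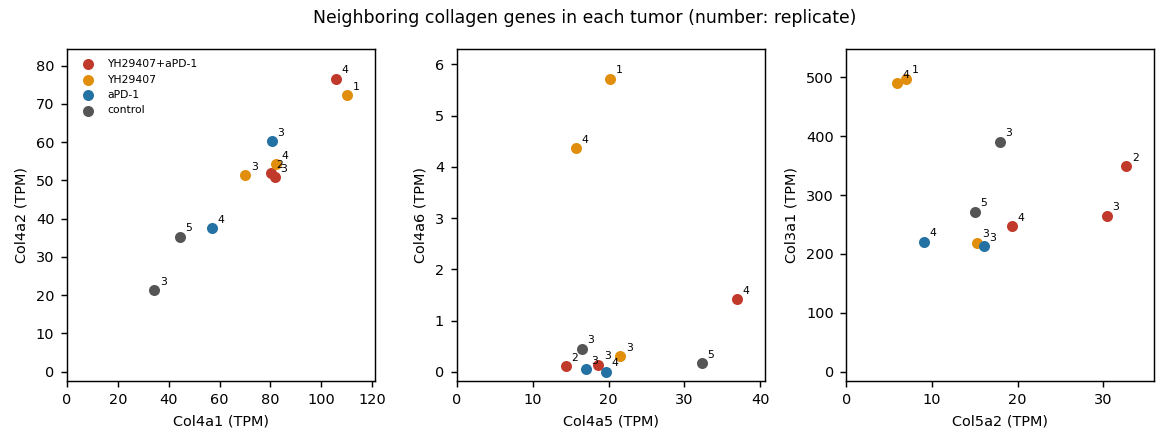
TPM of 3 pairs of neighboring collagen genes, 1 point for each library with its replicate number, colored by group. Col4a1 and Col4a2 lie along a line (ratio 1.26 to 1.62), whereas YH29407 replicates 1 and 4 leave the other libraries in Col4a6 (5.72 and 4.37 TPM) and in Col3a1 against Col5a2.

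Among FACIT and anchoring fibril collagens, combination replicate 4 was again apart. Col12a1, which binds fibrils of type I, had 47.4, 64.3 and 4.25 TPM in the combination libraries, 22.7, 19.0 and 12.6 TPM in the YH29407 libraries, 17.4 and 12.1 TPM in the aPD-1 libraries and 24.7 and 3.44 TPM in the control libraries. Its low value in combination replicate 4 stands beside the highest Col1a1 of the series (472 TPM). Col16a1 had 112, 89.5 and 195 TPM in the combination libraries and 68.2 to 105 TPM in the other 7. Col7a1, the gene of the anchoring fibril, was at 269.7 TPM in combination replicate 4 and at 63.6 to 118 TPM in the other 9 libraries. Combination replicate 4 was thus highest for Col16a1 and Col7a1 and next to lowest for Col12a1. Col9a3, a cartilage FACIT, had 8.43, 6.09 and 20.1 TPM in the combination libraries, 0.892, 14.0 and 1.61 TPM in the YH29407 libraries, 6.53 and 7.10 TPM in the aPD-1 libraries and 6.10 and 8.59 TPM in the control libraries.

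Col17a1, the hemidesmosome collagen of basal keratinocytes, had 9.84, 2.80 and 0.355 TPM in the combination libraries, 0.225, 0.212 and 0.697 TPM in the YH29407 libraries, 0.132 and 0.134 TPM in the aPD-1 libraries and 0.213 and 0.150 TPM in the control libraries. The 2 high libraries are the ones with the highest keratinocyte sums, where the keratin Krt14 was at 271 and 102 TPM, against at most 0.454 TPM in the other 8 libraries. Col17a1 in combination replicate 4, where the keratinocyte genes summed to 1.12 TPM, lay between the values of the YH29407 libraries. The part of keratinocyte content in the Col17a1 values was not tested. Col18a1, whose C-terminal fragment is endostatin, had 184, 134 and 138 TPM in the combination libraries, 125, 96.0 and 95.8 TPM in the YH29407 libraries, 90.1 and 103 TPM in the aPD-1 libraries and 111 and 169 TPM in the control libraries. Col15a1 had 26.7, 34.8 and 21.4 TPM in the combination libraries, 23.4, 19.3 and 14.4 TPM in the YH29407 libraries, 22.7 and 11.7 TPM in the aPD-1 libraries and 12.7 and 12 TPM in the control libraries. The neuronal collagen Col25a1 was below 0.2 TPM in every library, with 33, 45 and 46 counts in the combination libraries and 0 to 9 counts elsewhere. Col26a1 had 0 counts in all 10 libraries and was the single member that did not pass the filter. The other FACIT, hexagonal, transmembrane and ungrouped members, from Col8a1 to Col28a1, had medians between 0 and 3.32 TPM.

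The comparison of the combination with YH29407 alone asks what aPD-1 added to the inhibitor. Collagen mRNA was higher in the combination for most members: the fitted log2 fold change was positive for 38 of 43 genes, with a median of 0.98, against a median of 0.04 over all genes tested. No collagen passed the test, edgeR's quasi-likelihood test at an adjusted p under 0.05, and neither did any of the 21523 genes (0%). At an unadjusted p under 0.05, 16 of 43 collagens were higher and 0 lower, against a background of 10.6% of all genes higher and 6.84% lower. These 16 were 6 fibrillar genes, Col6a1, Col6a2, Col6a3 and Col4a4, 3 FACIT genes, the transmembrane Col17a1 and Col25a1, and Col18a1. Of these, Col4a4, Col25a1 and the FACIT gene Col19a1 had medians of at most 0.019 TPM and their highest TPM in combination replicate 4. Col1a1 had a log2 fold change of 1.63 ± 0.34 (SE, n = 3 and 3, edgeR adjusted p = 0.183), Col24a1 of 2.21 ± 0.50 (adjusted p = 0.203), Col5a2 of 1.64 ± 0.38 (adjusted p = 0.203) and Col25a1 of 4.64 ± 1.21 (adjusted p = 0.214). Col6a1 differed by 0.70 ± 0.27 (edgeR adjusted p = 0.26). Col3a1 (-0.38 ± 0.30) and Col4a1 (0.18 ± 0.28) differed by about their errors or less. DESeq2 called 7 collagens (Col1a1, Col5a2, Col5a3, Col24a1, Col17a1, Col22a1 and Col25a1) of the 42 for which it gave an adjusted p, against 6.51% of all such genes, and limma on the deposited FPKM called 0. Single libraries moved these values: without combination replicate 4 the median over the collagens was 0.51 and Col17a1 was called, with 0.846% of all genes. Without YH29407 replicate 3 the median was 1.28, and Col5a2, Col11a2, Col24a1 and Col27a1 were called (4 of 42), with 2.01% of all genes.

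**Figure D5:**
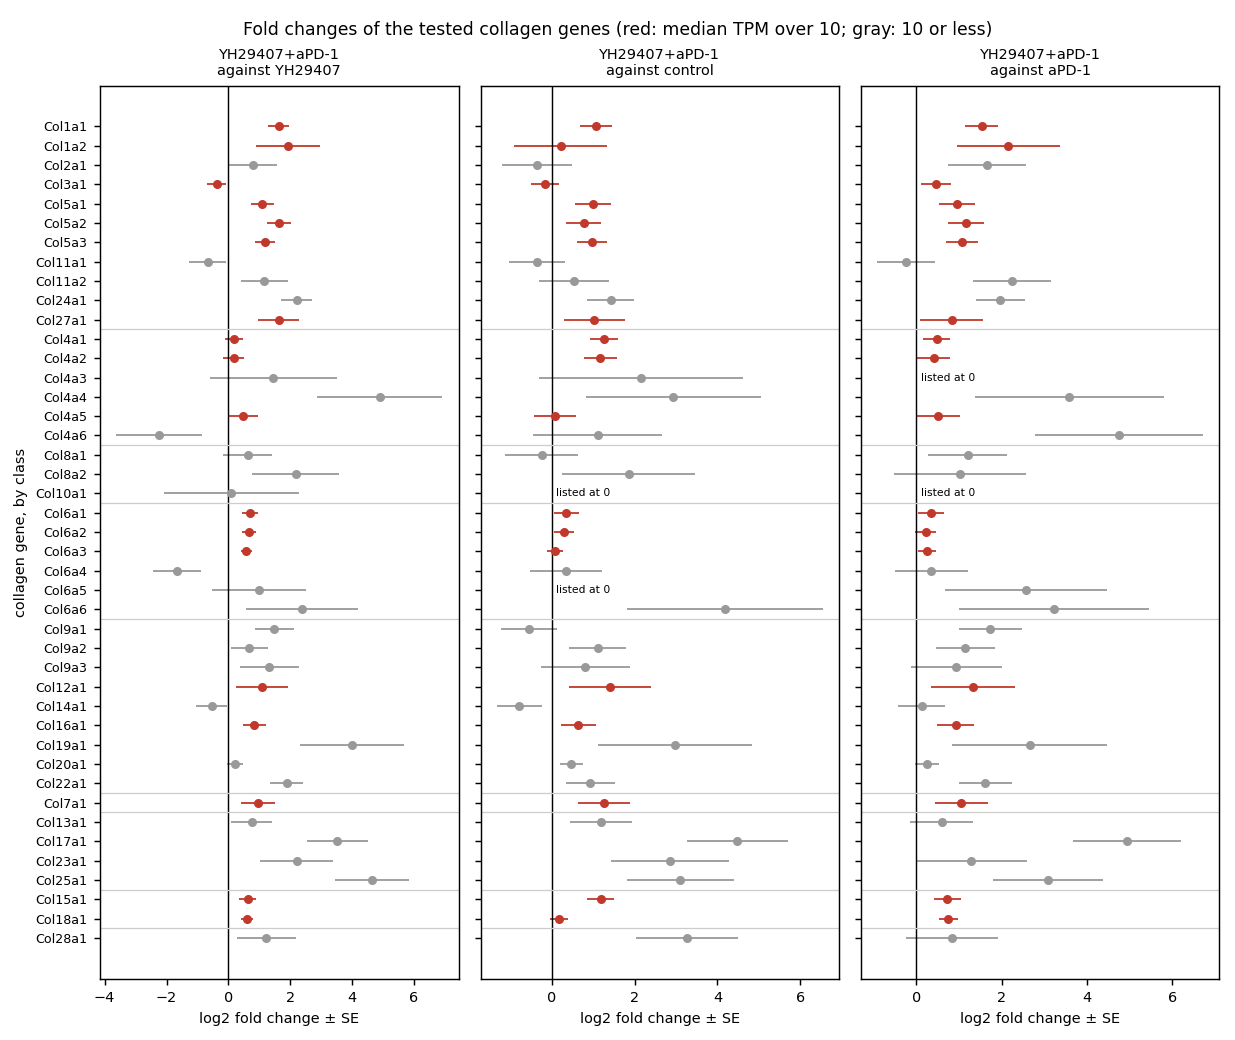
Fitted log2 fold change ± SE of the tested collagen genes in the combination against YH29407 (left), control (middle) and aPD-1 (right), from edgeR on 10 libraries, with genes of median TPM over 10 in red and others in gray. "Listed at 0" marks genes without counts in 1 of the 2 groups. Most points lie right of 0 in each panel (38, 37 and 42 of 43 fitted values), with Col3a1 left of 0 in the left and middle panels, and no gene has an adjusted p under 0.05.

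Against control, the combination had a positive log2 fold change for 37 of 43 collagens, with a median of 1.02, against 0.10 over all genes. None was called (0% of all genes), while 11 had an unadjusted p under 0.05 with a higher level and 0 with a lower one, against 6.98% and 3.12% of all genes. The type IV pair and Col15a1 had the smallest p among the abundant genes: Col4a1 differed by 1.26 ± 0.33 on the log2 scale, Col15a1 by 1.18 ± 0.32 and Col4a2 by 1.17 ± 0.40 (n = 3 and 2, adjusted p = 0.46 for each in edgeR). Col1a1 differed by 1.07 ± 0.38 with the same adjusted p, and Col17a1 by 4.48 ± 1.23. Col6a1 (0.34 ± 0.30) and Col3a1 (-0.16 ± 0.34) were within about 1 error of 0. DESeq2 called 4 collagens (Col4a1, Col15a1, Col17a1 and Col6a5), against 2.08% of all genes, and limma 0. Without combination replicate 4 the median was 0.42, and without control replicate 5 the number higher at an unadjusted p under 0.05 was 5, while the share over all genes was 2.25%.

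Against aPD-1 alone, 42 of 43 collagens had a positive fold change, with a median of 1.07 against 0.10 over all genes, and Col11a1 was the exception. None was called (0%), and 11 had an unadjusted p under 0.05 with a higher level and 0 with a lower one, against 5.76% and 2.34% of all genes. Col1a1 differed by 1.53 ± 0.39, Col24a1 by 1.97 ± 0.58, Col5a3 by 1.07 ± 0.37 and Col17a1 by 4.94 ± 1.27 (n = 3 and 2, adjusted p = 0.565 for each in edgeR). DESeq2 called 3 of these (Col1a1, Col17a1 and Col24a1), against 1.41% of all genes, and limma 0. The median was 0.67 without combination replicate 4, and the number higher at an unadjusted p under 0.05 was 6 without aPD-1 replicate 3 and 4 without aPD-1 replicate 4, where the shares over all genes were 2% and 2.38%. The 3 comparisons share the combination libraries and are not independent of each other.

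For the single treatments the fold changes against control were spread to both sides of 0. For YH29407 the median log2 fold change was -0.23 and 19 of 43 were positive, against a median of 0.01 over all genes, with 0 called (0%). At an unadjusted p under 0.05, 3 were higher and 2 lower, against 3.04% and 1.51% of all genes. The higher ones were Col4a1 (1.08 ± 0.33), Col4a2 and Col6a5, which had 88, 0 and 6 counts in the YH29407 libraries against 0 and 0 counts in the control libraries, and the lower ones were Col6a3 and Col9a1 (-2.04 ± 0.68, n = 3 and 2, adjusted p = 1 in edgeR). Col9a1 rests on 9, 9 and 16 counts in the YH29407 libraries against 66 and 26 counts in the control libraries. Col28a1 (2.05 ± 1.17) and Col6a6 (1.80 ± 2.18) also did not overlap, with at most 34 and 13 counts in a YH29407 library. Leaving out 1 library moved these counts to between 1 and 5 higher and between 1 and 10 lower, the upper ends being those without YH29407 replicate 3, where the shares over all genes were 5.14% and 4.65%. DESeq2 called 0 collagens, against 0.709% of all genes, and limma 0.

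For aPD-1 against control the median was -0.11, 17 of 43 were positive, and 0 were called (0%). At an unadjusted p under 0.05, 0 were higher and 2 lower (Col9a1 and Col18a1), against 1.39% and 1.32% of all genes. Col9a1 differed by -2.29 ± 0.79 on 9 and 9 counts in the aPD-1 libraries (adjusted p = 1 in edgeR). Of the 43 collagens, 6 were above and 11 below control without overlap of libraries. Over all 21523 genes tested, 4507 were above and 4529 below. Abundant genes such as Col4a1 (above) and Col3a1 (below) were among the collagens. Those named by size and smallest p had median levels of at most 1.99 TPM: Col2a1 (-2.01 ± 0.98), Col4a6 (-3.65 ± 1.97), Col11a2 (-1.71 ± 0.95), Col28a1 (2.42 ± 1.25) and Col23a1 (1.56 ± 1.43). Col6a5 had 5 and 15 counts in the aPD-1 libraries and 0 and 0 in the control libraries. Leaving out 1 library gave 0 to 2 higher and 0 to 4 lower, with 4 lower without YH29407 replicate 3, against 1.63% of all genes. DESeq2 called 0 collagens, against 0.231% of all genes, and limma 0.

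The interaction asks whether the combination differed from what the 2 single treatments add up to on the log2 scale. It was positive for 36 of 43 collagens, with a median of 1.13 against 0.04 over all genes, and 0 were called (0%). At an unadjusted p under 0.05, 12 were positive and 0 negative, against 3.78% and 2.39% of all genes. Col1a1 had an interaction of 2.09 ± 0.53 and Col18a1 of 1.19 ± 0.32 (n = 10 libraries, adjusted p = 0.722 for each in edgeR). The negative ones of smallest p were Col6a4 (-1.63 ± 1.22) and Col6a5 (-5.36 ± 3.46), with median levels of 0.435 and 0.0351 TPM. DESeq2 called 1, Col1a1, against 0.799% of all genes, and limma 0. The median was 0.55 without combination replicate 4. In that setting 10 were positive and 2 negative at an unadjusted p under 0.05, against 6.88% and 5.28% of all genes. The count of 12 became 5 without aPD-1 replicate 3 and 6 without control replicate 3, where the shares over all genes were 1.68% and 2.09%. Without control replicate 3, 1 was negative, against 1.36% of all genes. Tested for any difference among the 4 groups, 0 collagens were called (0%) and 12 of 43 had an unadjusted p under 0.05, against 10.6% of all genes, while DESeq2 called 8, against 5.86% of all genes, and limma 0. Without YH29407 replicate 3 the count of 12 became 21, against 14.8% of all genes.

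By class, the median log2 fold change in the combination against YH29407 was 1.20 for the 11 fibrillar genes, 0.33 for the 6 basement membrane genes, 0.68 for the 6 beaded filament genes and 1.09 for the 9 FACIT genes. Against control the order of these classes was different, with 0.76 for fibrillar, 1.21 for basement membrane, 0.34 for beaded filament and 0.81 for FACIT genes. Of the 6 basement membrane genes, 3 had median levels under 1 TPM. The 4 transmembrane genes, all with median levels under 1 TPM, had larger medians, 2.86 against YH29407 and 2.98 against control. In the same order, the medians were 0.62 and 1.85 for the 3 hexagonal network genes and 0.61 and 0.67 for the 2 multiplexin genes. The single values were 0.97 and 1.25 for Col7a1 and 1.22 and 3.27 for Col28a1. The 18 genes with a median TPM over 10 had medians of 0.77 and 0.86 in these comparisons, and the others of 1.22 and 1.18. Differences between classes were not tested. The summed TPM of the fibrillar genes was 1532, 1111 and 1829 in the combination libraries, 982, 868 and 902 in the YH29407 libraries, 739 and 806 in the aPD-1 libraries and 1253 and 816 in the control libraries. Control replicate 3 thus lay within the range of the combination. The summed TPM of the basement membrane genes was 147, 151 and 221 in the combination libraries, 208, 143 and 157 in the YH29407 libraries, 158 and 114 in the aPD-1 libraries and 72.6 and 112 in the control libraries.

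Over the 10 libraries, 12 pairs of genes were compared by correlation of log2 CPM. Col4a1 and Col4a2 had the closest relation (Pearson r = 0.978, permutation p = 2.0e-05, adjusted p = 0.00024, Spearman rho = 0.988, r = 0.946 without the 2 libraries farthest out in Col4a1). Col1a1 was related to Col5a1 (r = 0.906, permutation p = 0.00027, adjusted 0.00162, rho = 0.709), to Serpinh1, the collagen chaperone Hsp47 (r = 0.895, permutation p = 0.00061, adjusted 0.00244, rho = 0.879), to Col1a2 (r = 0.788, permutation p = 0.00552, adjusted 0.016, rho = 0.745) and to Col5a2 (r = 0.784, permutation p = 0.00667, adjusted 0.016, rho = 0.842). The rank correlations of Col5a1 and Col1a2 had adjusted permutation p values of 0.065 and 0.0524. Without the 2 libraries farthest out in Col1a1, combination replicates 2 and 4, r was 0.755 for Col5a1, 0.729 for Serpinh1, 0.776 for Col1a2 and 0.798 for Col5a2. The relation of Col1a1 to Col6a1 (r = 0.789, permutation p = 0.00839, adjusted 0.0168, rho = 0.588) rested on these libraries, with r = 0.467 without them and 0.56 without combination replicate 4 alone. Col1a1 showed no relation that passed the test to Col3a1 (r = 0.00, rho = 0.164, permutation p = 0.999), Col12a1 (r = 0.07, rho = 0.309, permutation p = 0.848), the cross-linking enzyme gene Lox (r = 0.15, rho = 0.0788, permutation p = 0.68) or the fibroblast receptor gene Pdgfra (r = -0.61, rho = -0.176, permutation p = 0.0766). Nor did Col4a1 with the endothelial gene Pecam1 (r = -0.10, rho = 0.0424, permutation p = 0.78) or Col18a1 with Col15a1 (r = 0.29, rho = 0.418, permutation p = 0.393). Without combination replicate 4, Col1a1 with Col12a1 had r = 0.62 and rho = 0.733, and neither passed (adjusted permutation p = 0.142 and 0.0937). No batch label was available for values within batches, and the libraries of different treatments were pooled.

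The summed level of 10 fibroblast markers was 709, 659 and 257 TPM in the combination libraries, 378, 394 and 373 TPM in the YH29407 libraries, 607 and 668 TPM in the aPD-1 libraries and 526 and 549 TPM in the control libraries, with none of the 10 at 0. Combination replicate 4 held the lowest fibroblast sum and the highest Col1a1, and the aPD-1 tumors held high fibroblast sums with Col1a1 at 141 and 138 TPM. The part of fibroblast content in the collagen values was not tested.

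Genes that process, degrade, bind or accompany collagen were compared in the combination against YH29407 as a background to the collagens themselves. None of them was called. The median log2 fold change of 33 biosynthesis genes was 0.04, and 3 of them were higher and 2 lower by unadjusted p (under 0.05, the rule also for the lists that follow). The shares over all genes to set beside these list counts were 10.6% higher and 6.84% lower. Serpinh1 had 451, 380.1 and 512 TPM in the combination libraries and 303, 348 and 253 TPM in the YH29407 libraries (0.72 ± 0.23, adjusted p = 0.23 in edgeR), and the cross-linking enzyme gene Loxl4 had 2.19, 2.51 and 1.56 TPM against 4.94, 3.14 and 6.91 TPM (-1.16 ± 0.32). The collagens thus had a higher median than the biosynthesis genes, a difference that was not tested. Of 20 tested genes of collagen degradation, the median was 0.46, with 3 higher and 1 lower. The membrane collagenase gene Mmp14 had 172, 154 and 164 TPM in the combination libraries and 122, 121 and 125 TPM in the YH29407 libraries (0.54 ± 0.17, edgeR adjusted p = 0.224), and the protease inhibitor gene Timp1 differed by -0.88 ± 0.32.

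Of 11 receptors of collagen, the median was 0.50, with 2 higher and 0 lower. These were Adgrg1, an adhesion receptor for type III collagen (7.25, 5.87 and 6.37 TPM in the combination libraries against 3.39, 3.67 and 2.36 TPM in the YH29407 libraries, 1.11 ± 0.27), and the discoidin receptor gene Ddr2 (0.50 ± 0.19). Of 29 tested matrix partners, the median was 0.36, with 5 higher and 3 lower. Elastin (Eln) had 39.0, 38.2 and 32.0 TPM in the combination libraries against 0.177, 0.569 and 0 TPM in the YH29407 libraries, with 6.50 and 16.0 TPM in the aPD-1 libraries and 10.04 and 1.96 TPM in the control libraries (7.26 ± 1.25 for the combination against YH29407, adjusted p = 0.181 in edgeR). The small proteoglycan gene Ogn was lower, with 0.541, 0.736 and 0.302 TPM in the combination libraries against 13.2, 1.56 and 6.85 TPM in the YH29407 libraries (-3.70 ± 0.74, edgeR adjusted p = 0.181). Fibronectin (Fn1), named here after its values were seen and on which cells assemble collagen fibrils, was at 639.6, 627 and 322 TPM in the combination libraries and at 1537, 696 and 1453 TPM in the YH29407 libraries, with 923 and 939.6 TPM in the aPD-1 libraries and 831 and 866 TPM in the control libraries, so that YH29407 replicates 1 and 4 were the highest. Of 17 genes of TGF beta signaling, the pathway best known for inducing collagen genes, 1 was higher and 1 lower, with a median of 0.17.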

How the data were processed

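RNA of formalin-fixed, paraffin-embedded MC38 tumors had been captured and sequenced, and per the labels HISAT2 and StringTie were used with build mm10, without versions given there. The authors deposited a gene table with read counts, FPKM and TPM for each library: the deposited counts are unnormalized reads per gene, and the deposited FPKM and TPM are scaled by the authors for depth and transcript length. Whether strand was used in counting is not given in the sources used here, so reads from shared bases of overlapping genes cannot be assigned with certainty. Values in this report are deposited TPM, and tests used the deposited counts.

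Tests were run in R 4.3.3 with edgeR 4.0.16 (TMM factors, filterByExpr, quasi-likelihood test, 10 libraries in 1 fit) and Benjamini-Hochberg adjustment over 21523 genes. The common dispersion was 0.252. The SE of a fold change was derived as its absolute log2 value divided by the square root of the F statistic of the quasi-likelihood test. The interaction is combination minus YH29407 minus aPD-1 plus control. Alternatives were RLE factors, no filter, a replicate block, only the compared groups, DESeq2 1.42.0, limma 3.58.1 on log2(FPKM + 1) and log2(FPKM + 0.1), and each library left out. Correlations used 100000 permutations in numpy 2.4.6, with ranks from scipy 1.17.1. The fitting steps were tested on simulated counts. Fold changes with errors are printed for up to 4 higher and 4 lower collagens by smallest p, if groups did not overlap and the log2 fold change was 1 or more in size, for up to 2 positive and 2 negative interactions, for Col1a1, Col3a1, Col4a1 and Col6a1, and for 2 genes of each of 4 lists. Promoter windows came from RefSeq, where 35 of 44 members had an entry. The members, lists and tests were chosen with earlier results of these data known.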

Additional observations from a re-analysis of the deposited data

How the results depend on the processing

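Collagens called at an adjusted p under 0.05 numbered 0 in all comparisons by edgeR, also with RLE factors, without the filter, with a replicate block, within the compared groups and by limma. DESeq2 called 7 in the combination against YH29407, 4 against control, 3 against aPD-1, 1 for the interaction and 8 for any difference, against 6.51%, 2.08%, 1.41%, 0.799% and 5.86% of all genes. Leaving out 1 library gave 0 to 4 called in the combination against YH29407 and 0 elsewhere. With combination replicate 4 as the only combination library, an alternative chosen after seeing the data in which it is assumed to vary like the other groups, 10, 8 and 7 were called against YH29407, control and aPD-1, 7 for the interaction and 6 for any difference, of 42 tested, while 34.4%, 32.2%, 29.9%, 21% and 26.3% of all genes were called. Replicate numbers were not used as pairs. Deviations from the group mean had correlations of -0.05 to 0.12 in same-numbered pairs of libraries and -0.18 to 0.18 in other pairs. Of these, 2 of 9 same-numbered and 2 of 28 other pairs were over 0.1. In groups of 2 the deviations mirror each other, so this check cannot exclude pairing. With the replicate block, 9 collagens in place of 16 were higher than in YH29407 at an unadjusted p under 0.05. The share over all genes was then 1.93% in place of 10.6%. Directions turned for Col6a5 in the interaction (0.030 and 0.18 by limma at pseudocounts 1 and 0.1), and between libraries left out for Col6a4 in the interaction (-2.13 to 0.14), Col4a1 against YH29407 (-0.13 to 0.43) and Col3a1 against control (-0.42 to 0.056). Correlations that turned were Col1a1 with Col3a1 (-0.14 on log2(TPM + 1), -0.025 without combination replicate 4), Col1a1 with Pdgfra (0.14 without it) and Col4a1 with Pecam1 (0.039 and 0.52), and Col1a1 with Col6a1 no longer passed (r = 0.56). The causes were not tested. Groups of 2 or 3 libraries limit what these tests can detect, and members with few counts rest on single libraries.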
